A study of Mus musculus with 6 samples.

Results

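Elastic fibres give the lung its recoil. Each fibre has a core of crosslinked elastin laid onto a scaffold of fibrillin microfibrils, and fibulins and small microfibril-associated proteins bring the elastin monomer, the scaffold and the crosslinking enzymes together. Lung fibroblasts and smooth muscle cells are known to make these proteins. The 10 genes described here, Eln, Fbn1, Fbn2, Fbln1, Fbln2, Fbln5, Efemp2, Mfap4, Mfap5 and Emilin1, were taken by name as a set of structural elastic fibre genes, and were read by every array feature whose RefSeq accession belongs to them. They had 13 features, of which 12 were tested, and all 10 genes were among the 12487 genes tested on the array.

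The cells were lung fibroblasts of female mice aged 11 weeks, per the labels, either Mmp19 knockout or wild type. Mmp19 is a secreted matrix metalloproteinase. Mice of both genotypes had been given 0.08 units of the lung-injuring drug bleomycin through the trachea, the fibroblasts were taken on day 21, and the cultures were incubated for 72 hours, so no group without bleomycin enters the comparison. Each genotype had 3 one-colour Agilent arrays of total RNA, which the series text calls independent experiments. The sources used here do not state the background strain, the kind of deletion or how many animals went into a culture, so p-values measure the spread between these arrays.

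Signals are given as log2 of the processed signal relative to each array's 75th percentile, so that 0 is that percentile and 1 unit is a doubling. In scanner units that percentile was 160 to 388 for knockout and 223 to 344 for wild type over non-control spots, and 43.1% to 54.5% of spots counted as well above background. The targeted gene, Mmp19, was detected above background in 3 of 3 wild-type and 0 of 3 knockout arrays (adjusted p of the fitted change = 0.016, limma). Against the lowest signal well above background on each knockout array, wild-type signal was higher by 5.33-fold. Xist, which is transcribed from the silenced X of females, cleared background in 3 of 3 knockout and 0 of 3 wild-type arrays, while Y-linked Eif2s3y cleared it in all 6. That goes against the labelled sex, and a difference in sex and the difference in genotype cannot be told apart. Wild-type replicate 2 correlated at 0.939 and 0.96 with wild-type replicates 1 and 3, where those correlated at 0.984. In the knockout, replicates 1 and 2 correlated at 0.958, and replicate 3 at 0.98 and 0.986 with replicates 1 and 2. Knockout replicate 1 had the lowest 75th percentile (160) and the lowest share of spots well above background (43.1%). Of the lung epithelial markers, Epcam and Nkx2-1 cleared background on 0 of 6 arrays, while Sftpc (4.95 in knockout, 4.97 in wild type), Scgb1a1, Sftpb, Sftpd, Cdh1 and Ager did so on all 6. Of the endothelial markers, Tie1, Tek, Emcn and Erg cleared it on 0 of 6, and Kdr (1.58 and 1.77), Pecam1 and Cdh5 on all 6. The fibroblast markers Col1a1, Col1a2, Col3a1, Pdgfra, Pdgfrb, Thy1, Vim, S100a4 and Dcn were well above background on all 6 arrays. Lum was so on 3 knockout and 2 wild-type arrays. Dcn varied within the wild type, at 8.50, 2.74 and 7.85 on arrays 1, 2 and 3, against 5.62, 5.51 and 5.72 in the knockout.

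None of the 10 elastic fibre genes passed the test between genotypes on its brightest feature, although all 10 changes were above 0 in the knockout (9 of 10, with Fbn2 below 0, when arrays were scaled to detected features, and 8 of 10 without wild-type replicate 2). The limma count was 0 of 10 at an adjusted p under 0.05 and 2 of 10 (Fbln5 and Efemp2) at an unadjusted p under 0.05, while 4.8% of all genes tested passed at the adjusted p. The changes ran from 0.11 (Fbn2) to 1.55 (Fbln5) on the log2 scale, with a median of 0.55, beside a median of 0.08 over all genes tested. A change above 0 was found for 56.3% of all genes, and the 10 genes share the same 6 arrays, so their common direction is given as a description. Scaling the arrays to features detected on all 6 moved the median over all genes from 0.08 to -0.04 and that of the elastic fibre genes to 0.43. One further feature, a dim one of Fbln5, did pass, and it is described with that gene.

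**Figure D1:**
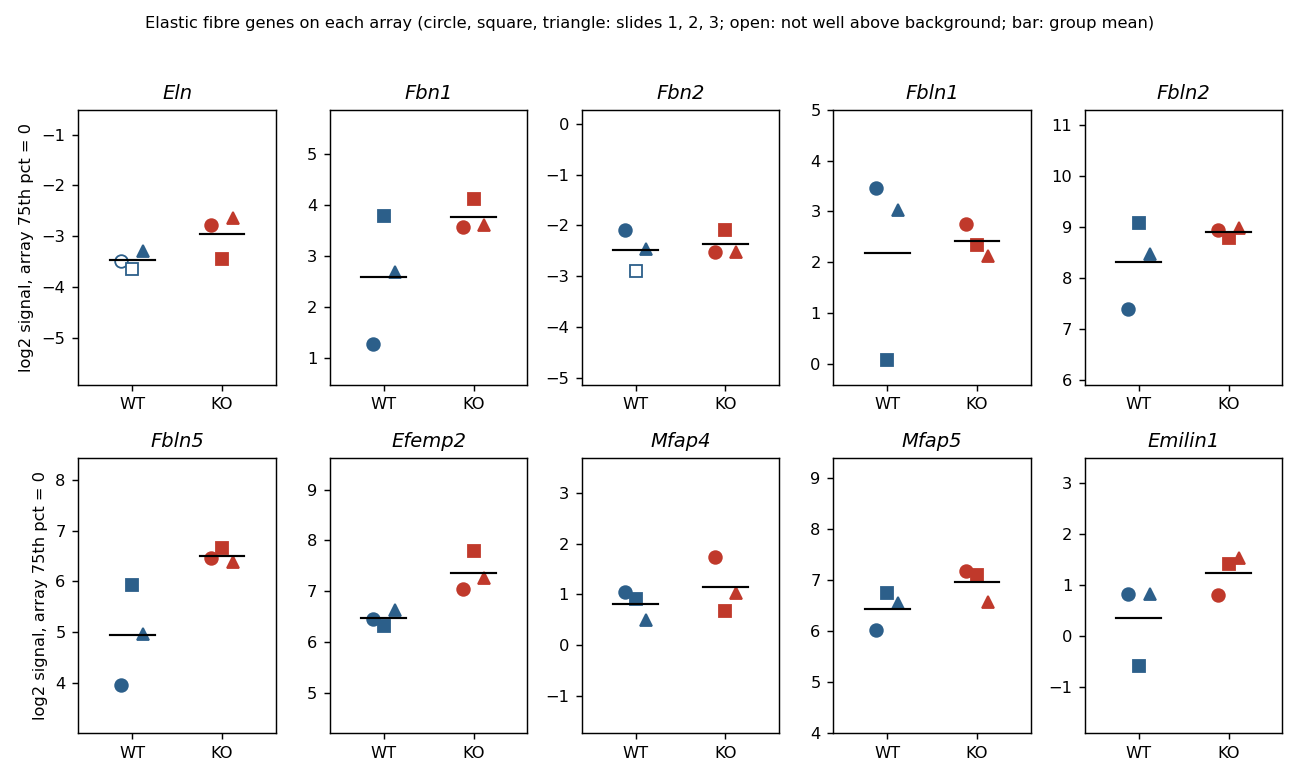
Log2 signal (0 is the array's 75th percentile) of the brightest tested feature of each elastic fibre gene on the 3 wild-type (WT, blue) and 3 knockout (KO, red) arrays. Bars are group means, marker shapes are slides and open markers are values not well above background; every panel spans the same log2 range, and the groups separate for Fbln5 and Efemp2.

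The core protein of the fibre is elastin, whose gene Eln encodes the soluble monomer tropoelastin. Eln signals were -2.78, -3.45 and -2.63 on knockout arrays 1, 2 and 3, and -3.49, -3.65 and -3.28 on wild-type arrays 1, 2 and 3. Knockout replicate 2 fell below wild-type replicate 3, so the groups overlapped. It cleared background on all 3 knockout arrays but on 1 of 3 wild-type arrays, and it entered the test through the knockout group. Its level was -2.95 ± 0.44 (SD, n = 3) in the knockout and -3.47 ± 0.19 (SD, n = 3) in the wild type, a fitted change of 0.52 ± 0.27 (SE; 95% interval -0.12 to 1.17; limma adjusted p = 0.322). With normexp background correction in place of Agilent's, the Eln change was 0.03 ± 0.24 (SE; limma adjusted p = 0.970). The 3 slides carried 1 knockout and 1 wild-type array apiece, and within them the difference was 0.72, 0.21 and 0.65.

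The fibrillins form the microfibril scaffold. Fbn1 encodes fibrillin-1, the main fibrillin of adult tissue. Its signals were 3.56, 4.12 and 3.60 on the knockout arrays and 1.26, 3.79 and 2.69 on the wild-type arrays. The 3 knockout arrays lay close together, while the wild-type arrays spread from far below them (replicate 1) to within their range (replicate 2). The change was 1.18 ± 0.60 (SE; 95% interval -0.25 to 2.60; adjusted p = 0.313) and was 0.52 without wild-type replicate 1 (adjusted p = 0.515). Leaving out wild-type replicate 2 in its place gave 1.78 (adjusted p = 0.0729). Within slides it was 2.30, 0.33 and 0.90.

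Fbn2 encodes fibrillin-2, known mostly from developing tissue. Its brighter feature read -2.52, -2.08 and -2.52 in the knockout and -2.08, -2.89 and -2.47 in the wild type. The genotypes overlapped fully, with the highest values of the 2 groups equal at the precision given. The change was 0.11 ± 0.28 (SE), the 95% interval ran from -0.55 to 0.76, and the sign turned negative under 5 of 15 alternative settings, among them scaling to detected features (-0.01). Fibrillin-2 was also read by a dimmer feature that was not tested.

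Of the proteins that sit on the microfibril, Mfap5, also called MAGP-2, binds fibrillins, Mfap4 is a fibrinogen-related glycoprotein that binds elastin and fibrillin, and Emilin1 is a glycoprotein found where elastin meets the microfibrils. Mfap5 read 7.19, 7.10 and 6.58 in the knockout and 6.03, 6.74 and 6.56 in the wild type. Its lowest knockout value lay below the highest wild-type value, and the change was 0.51 ± 0.28 (SE; 95% interval -0.15 to 1.18; adjusted p = 0.347). Mfap4 read 1.73, 0.67 and 1.02 in the knockout and 1.04, 0.91 and 0.49 in the wild type, with knockout replicate 1 alone above all wild-type arrays. Its change was 0.33 ± 0.32 (SE; 95% interval -0.44 to 1.09; adjusted p = 0.601).

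Emilin1 read 0.80, 1.40 and 1.53 in the knockout and 0.82, -0.60 and 0.81 in the wild type. Wild-type replicate 2 was the low value, and knockout replicate 1 lay at the level of the other wild-type arrays. The change was 0.90 ± 0.44 (SE; 95% interval -0.14 to 1.93; adjusted p = 0.292), and it was 0.42 without wild-type replicate 2. Within slides it was -0.02, 1.99 and 0.72.

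Fbln5 had the largest change on the brightest feature among the 10 genes, of which 4 are fibulins, proteins that bridge elastin and microfibrils. Fibulin-5 binds tropoelastin and cell-surface integrins and is needed for elastic fibre assembly in mice. Its brighter feature (A_55_P2088615) read 6.47, 6.65 and 6.38 in the knockout and 3.96, 5.93 and 4.97 in the wild type. Every knockout array lay above every wild-type array, with the knockout arrays within a narrow band and the wild-type arrays spread widely below it. The level was 6.50 ± 0.14 (SD, n = 3) against 4.95 ± 0.99 (SD, n = 3), a change of 1.55 ± 0.47 (SE; 95% interval 0.43 to 2.67), or 2.93-fold. It did not pass (limma adjusted p = 0.123). The difference was 2.51, 0.72 and 1.41 within slides 1, 2 and 3. It was 2.04 ± 0.33 and past the threshold without wild-type replicate 2 (adjusted p = 0.0252), and 1.05 ± 0.34 and not past it without wild-type replicate 1 (adjusted p = 0.184).

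A dimmer Fbln5 feature (A_52_P278336), annotated to the same RefSeq transcript, was the 1 of 12 tested elastic fibre features past the threshold, where 4.65% of all tested features passed (697 of 1127 higher in the knockout, or 606 of 1175 with scaling to detected features). It read -1.71, -2.05 and -2.11 in the knockout and -5.75, -4.88 and -6.41 in the wild type. It cleared background on 3 of 3 knockout and 0 of 3 wild-type arrays, so it entered the test through the knockout group and its wild-type level was not measured. Against the lowest signal well above background on each wild-type array, knockout signal was higher by 3.44-fold. That limit is approximate, since a feature can read above it without being well above background. The adjusted p of the fitted change was 0.00707 (limma), and 0.035 with slide as a block. With normexp background correction in place of Agilent's the change of the dimmer feature was 0.80 and did not pass (adjusted p = 0.147), while the brighter feature read 1.62. Without knockout replicate 3 the dimmer feature also fell short (adjusted p = 0.052). When both features were averaged, Fbln5 passed (adjusted p = 0.0199), but that average carries the wild-type values of the dimmer feature that were not well above background, so its fitted change of 2.64 is no measured difference. Signals of different features are not set against each other here, and the sources used here do not state where in the transcript each feature lies.

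**Figure D2:**
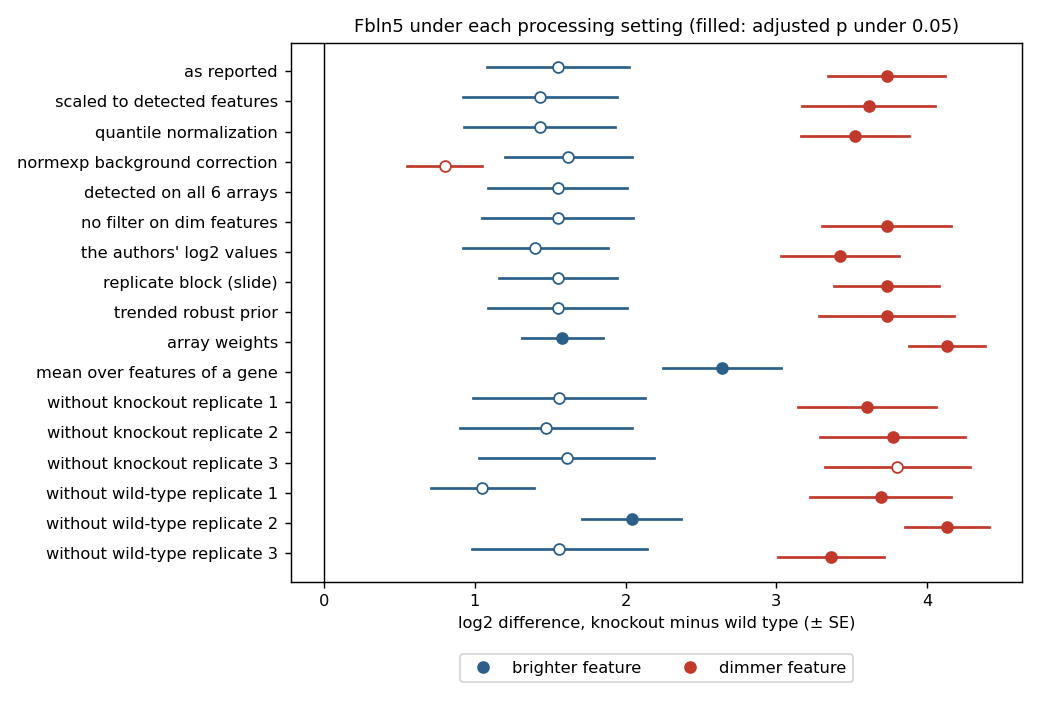
Log2 difference, knockout minus wild type, of the brighter (blue) and the dimmer (red) Fbln5 feature under each processing setting, with bars of 1 standard error. Filled points passed an adjusted p under 0.05. Both features stayed above 0 under every setting shown, the brighter between 1.05 and 2.04 and the dimmer between 0.80 and 4.13. The blue point at 2.64 is the average of both features and not the brighter one alone. The dimmer has no point of its own there or where detection on all 6 arrays was required.

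Efemp2 encodes fibulin-4, which is required for elastic fibre formation and binds the crosslinking enzyme lysyl oxidase. It read 7.05, 7.80 and 7.27 in the knockout and 6.45, 6.32 and 6.64 in the wild type. All knockout arrays lay above all wild-type arrays, and the wild-type arrays lay close together. The level was 7.37 ± 0.38 (SD, n = 3) against 6.47 ± 0.16 (SD, n = 3), a change of 0.90 ± 0.25 (SE; 95% interval 0.30 to 1.50), or 1.87-fold. It did not pass (limma adjusted p = 0.101). It was positive within each slide, at 0.60, 1.47 and 0.63, and ran from 0.69 to 1.06 over 16 alternative settings. Fbln5 and Efemp2 were thus 2 of 10 genes whose knockout arrays all lay above the wild-type arrays, where 21.2% of all genes with complete values did so.

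Fibulin-1 and fibulin-2, the products of Fbln1 and Fbln2, are found in basement membranes as well as in elastic fibres. Fbln2 read 8.94, 8.78 and 8.98 in the knockout and 7.40, 9.09 and 8.48 in the wild type. Wild-type replicate 2 was above every knockout array and wild-type replicate 1 well below them, so the groups overlapped. The change was 0.58 ± 0.42 (SE; 95% interval -0.42 to 1.57; adjusted p = 0.472) and was 0.11 without wild-type replicate 1.

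The direction of Fbln1 rested on 1 array. It read 2.75, 2.35 and 2.13 in the knockout and 3.47, 0.08 and 3.02 in the wild type. Wild-type replicates 1 and 3 lay above all knockout arrays and replicate 2 far below them, and a dimmer Fbln1 feature repeated this order, with 0.39, 0.31 and 0.16 against 1.09, -3.11 and 0.66. With all arrays the change was 0.22 ± 0.84 (SE; 95% interval -1.77 to 2.21), and without wild-type replicate 2 it was -0.83 ± 0.28 (limma adjusted p = 0.131). Within slides it was -0.72, 2.26 and -0.89.

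**Figure D3:**
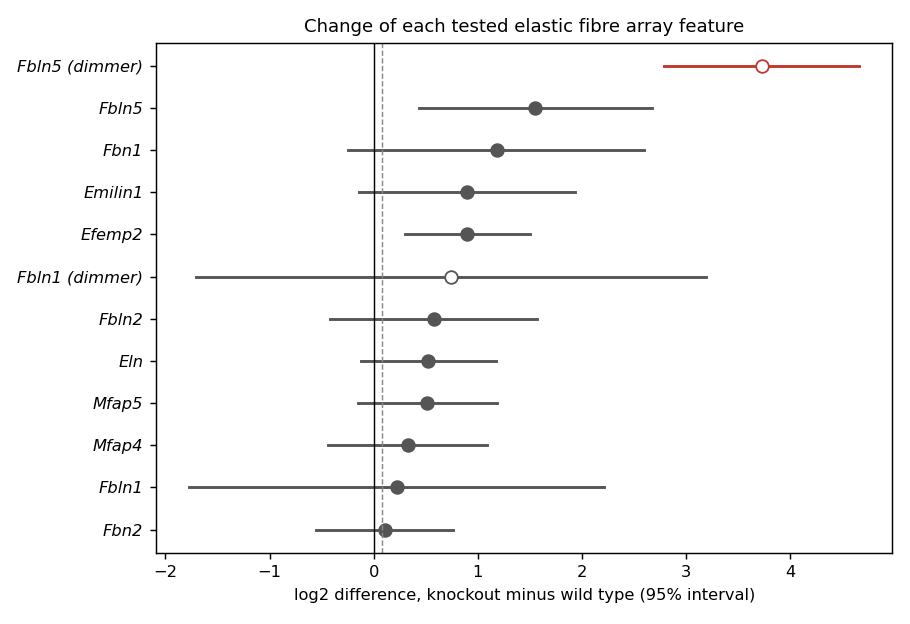
Log2 difference, knockout minus wild type, with its 95% interval from the limma fit, for the 12 tested features; open circles are the dimmer feature of a gene, and red marks an adjusted p under 0.05. The solid line is 0 and the dashed line the median over all genes (0.08); the dim Fbln5 feature at 3.73 is the one in red, a fitted value against wild-type signals not well above background.

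The RefSeq promoter table (GRCm38.p6) held windows for 6 of the 10 genes, namely Fbn1, Fbln1, Fbln2, Fbln5, Efemp2 and Emilin1, and not for Eln, Fbn2, Mfap4 and Mfap5. The windows of the pair of genes whose groups separated are shown, as the 250 bases before a start, 5′ to 3′ in the direction of the gene, with motif matches in capitals. Fbln5 has 2 starts in the table on the minus strand of chromosome 12, and for Efemp2, on the plus strand of chromosome 19, the window before the outermost of 3 starts is given.

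Fbln5, first start, chr12:101819120-101819369: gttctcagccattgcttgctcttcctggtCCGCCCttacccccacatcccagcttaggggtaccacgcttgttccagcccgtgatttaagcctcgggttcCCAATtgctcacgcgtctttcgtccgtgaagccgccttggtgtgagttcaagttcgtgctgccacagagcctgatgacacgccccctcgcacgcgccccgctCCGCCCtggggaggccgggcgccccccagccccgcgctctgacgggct

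Fbln5, second start, chr12:101818485-101818734: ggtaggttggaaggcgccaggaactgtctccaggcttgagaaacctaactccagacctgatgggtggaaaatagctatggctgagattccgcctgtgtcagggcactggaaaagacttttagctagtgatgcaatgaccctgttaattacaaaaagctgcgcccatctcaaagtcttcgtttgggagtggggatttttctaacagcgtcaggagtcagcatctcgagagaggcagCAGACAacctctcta

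Efemp2, outermost start, chr19:5473696-5473945: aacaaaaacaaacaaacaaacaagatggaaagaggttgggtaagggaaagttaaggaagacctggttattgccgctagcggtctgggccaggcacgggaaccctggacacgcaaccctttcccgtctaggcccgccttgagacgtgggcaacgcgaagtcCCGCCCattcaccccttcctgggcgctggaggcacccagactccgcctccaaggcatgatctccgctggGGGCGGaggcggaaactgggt

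In the first Fbln5 window the capitals mark 2 GC boxes (GGGCGG on either strand, 221 and 48 bases before the start) and 1 CCAAT box (150 bases before it). The second Fbln5 window holds neither, and its capitals mark 1 SMAD-type match (CAGACA, 15 bases before the start). The Efemp2 window holds 2 GC boxes, 90 and 21 bases before the start. Searched on both strands, at least 1 GC box was present in 7 of the 10 windows of these 6 genes (none of them Emilin1's), and in 32.7% of all 32851 windows of this length. The SMAD-type letters were in 4 of 10 windows (of Fbln1, Fbln5 and Emilin1) and in 17.1% of all windows, and the CCAAT box in 1 of 10 and 33.8%. Windows of Efemp2 and of Fbln1 overlap and share matches. The TATA box (TATAAA), an AP-1 site (TGANTCA) and a TEAD-type match (CATTCC) were in no window of the 6 genes, and in 12.4%, 6.75% and 12.6% of all windows.

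The genes differed in which wild-type array was low. All 10 had their lowest value on a wild-type array, as did 62.9% of all genes, but not on the same one: 4 were lowest on replicate 1 (Fbn1, Fbln2, Fbln5 and Mfap5), 5 on replicate 2 (Eln, Fbn2, Fbln1, Efemp2 and Emilin1) and Mfap4 on replicate 3. Fbn1, Fbln2, Fbln5 and Mfap5 shared the order replicate 2 over 3 over 1 in the wild type, and Fbln1 and Emilin1 shared the drop on replicate 2. The spread was wider in the wild type for 7 of the 10 genes, as for 59.4% of all genes, with a median SD of 0.61 against 0.32 in the knockout. Over all genes the median SDs were 0.32 and 0.25.

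Within slides the genes were mostly above 0 as well. The median change of the 10 genes was 0.70, 0.54 and 0.58 on slides 1, 2 and 3, where the median over all genes was -0.01, 0.33 and -0.03. The number of genes above 0 was 7, 8 and 8, and 5 genes (Eln, Fbn1, Fbln5, Efemp2 and Mfap5) were above 0 on all 3 slides. The share of all genes above 0 within slides was not computed, so these counts are given as a description.

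**Figure D4:**
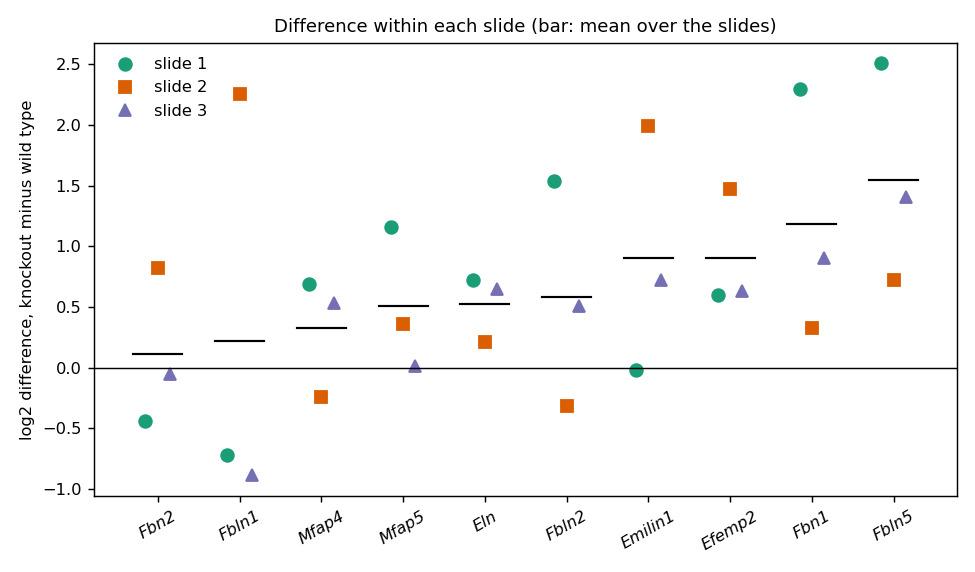
Log2 difference, knockout minus wild type, of the brightest tested feature of each gene within slides 1 (circle), 2 (square) and 3 (triangle), ordered by the mean (bar). Fbn1, Fbln2 and Fbln5 were highest on slide 1, at 2.30, 1.54 and 2.51, while Fbln1 and Emilin1 were highest on slide 2, at 2.26 and 1.99.

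The genes whose profile over the 6 arrays lay nearest to that of Eln, by root mean square distance of the centred log2 values among 12430 other genes, were Lrrfip2 (0.0606), Kif3b (0.0729), H2ac6 (0.0987), Eid1 (0.115) and Zfp108 (0.123). None of these 5 changes passed. Their changes ran from 0.40 to 0.61, and H2ac6 belongs to a family of near-identical histone genes. The nearest of the other elastic fibre genes was Mfap4, at 0.372. Eln was not well above background on wild-type replicates 1 and 2, so the matched profile rests in part on background-level signals. Any link of these genes to elastin was not tested.

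Other genes of the elastic fibre pathway were taken from 7 lists, in which 5 genes rose and 0 fell. Of 15 tested microfibril and elastic fibre partners 1 rose and 0 fell, where 3.3% of all genes rose and 1.51% fell. The riser was Fbln7, a fibulin-like adhesion protein, at 2.25, -0.14 and 1.09 in the knockout and -2.32, -3.67 and -2.48 in the wild type. All knockout arrays of Fbln7 lay above all wild-type arrays. The fitted change was 3.89 ± 0.64 (SE; limma adjusted p = 0.0257, and 0.027 with slide as a block). However, Fbln7 was well above background on 2 of 3 wild-type arrays and entered the test through the knockout group. Its fitted change thus rests in part on a background-level signal and is no measured difference. Where detection on every array was required, Fbln7 was not tested and no gene of this list rose. Fbln7 was not past the threshold without knockout replicate 3, without wild-type replicate 3 or with no filter on dim features. The latent TGF-beta binding proteins Ltbp1, Ltbp3 and Ltbp4, which hold the growth factor on microfibrils, had changes of 0.80 ± 0.25, 0.79 ± 0.27 and 0.48 ± 0.19 (SE) with separated groups, and did not pass (adjusted p = 0.128, 0.162 and 0.219). Ltbp2 had overlapping groups and a change of 0.20 ± 0.59 (SE; adjusted p = 0.877). Efemp1, the fibulin-3 gene, had a change of 1.57 ± 0.66 (adjusted p = 0.236). Of 8 ADAMTS and ADAMTS-like microfibril assembly genes 1 was tested, Adamtsl4, at 0.02 ± 0.36.

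Of 6 elastin crosslinking and copper supply genes 2 rose and 0 fell, with a median change of 1.63. Lysyl oxidase, Lox, read 6.50, 6.58 and 6.37 in the knockout and 2.99, 4.84 and 4.26 in the wild type, a change of 2.45 ± 0.45 (SE; adjusted p = 0.0352). Loxl1, the family member tied to elastin upkeep, read 4.97, 5.65 and 5.34 against 4.01, 2.77 and 3.77, a change of 1.81 ± 0.37 (SE; adjusted p = 0.045). Neither passed with slide as a block (adjusted p = 0.0719 and 0.116) or with no filter on dim features. Neither passed without any 1 of the knockout arrays or without wild-type replicate 3. Loxl1 also fell short without wild-type replicate 1 and when features of a gene were averaged. Lox passed in 10 and Loxl1 in 8 of 16 alternative settings. Loxl2 and Loxl3 changed by 2.68 ± 0.61 and 1.45 ± 0.38 (SE) without passing (adjusted p = 0.0603 and 0.0854).

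Of 6 tested elastases 1 rose, the membrane-bound Mmp14 (1.62 ± 0.27 (SE); limma adjusted p = 0.0265, and 0.0456 with slide as a block). Mmp14 passed without wild-type replicate 2, but not without any other single array or with no filter on dim features. Neutrophil elastase, Elane, cleared background on all 6 arrays at 2.29 and 2.23 (change 0.06 ± 0.26 (SE); limma adjusted p = 0.922). Ctsg cleared it on 2 knockout and 1 wild-type arrays, and Mmp12, Mmp9 and Prtn3 on 0 of 6. Of 5 tested elastase inhibitors none passed, and the smallest p was that of cystatin C, Cst3 (0.85 ± 0.19 (SE); adjusted p = 0.061). Of 9 tested cell surface partners 1 rose, Itga8, a subunit of an integrin that binds RGD sites such as those of fibronectin, at 3.29 ± 0.35 (SE; adjusted p = 0.00707). It passed in 14 of 16 alternative settings, and not without knockout replicate 3 or without wild-type replicate 3. Of the 3 TGF-beta ligands none passed, with Tgfb2 at 1.50 ± 0.55 (SE; adjusted p = 0.182).

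**Figure D5:**
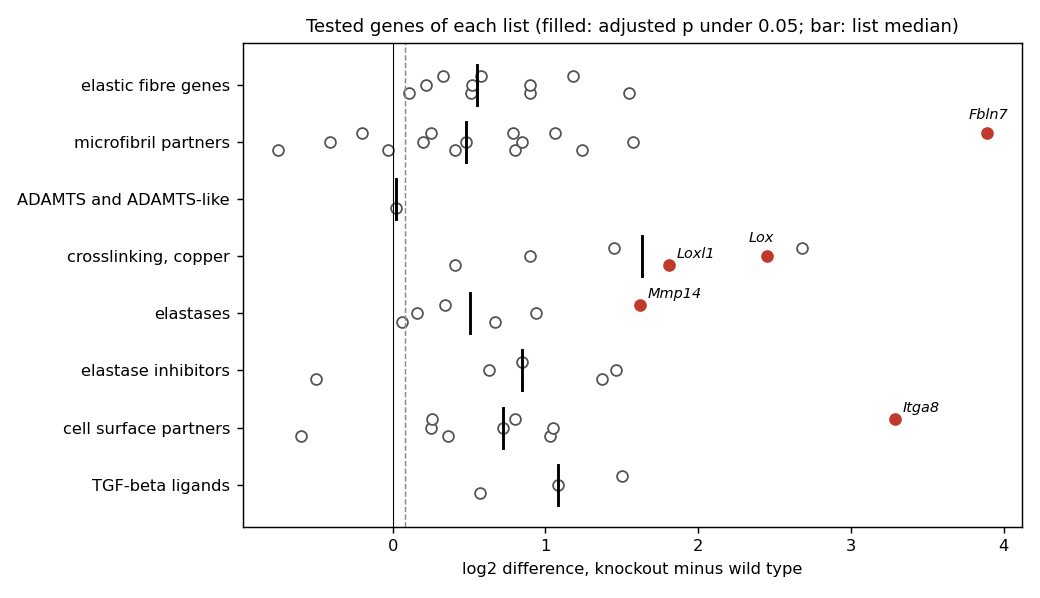
Log2 difference, knockout minus wild type, of each tested gene in the elastic fibre set and the 7 related lists; filled red points passed an adjusted p under 0.05, bars are list medians and the dashed line is the median over all genes (0.08). The 5 genes that passed are Fbln7, Lox, Loxl1, Mmp14 and Itga8, and the elastic fibre genes lie between 0.11 and 1.55.

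Some cell type markers passed the test between genotypes, in the mesothelial, the smooth muscle and pericyte, and the fibroblast lists. Of 9 mesothelial markers 5 rose, namely Msln, Upk3b, Wt1, Lrrn4 and Bnc1, where 3.3% of all genes tested rose and 1.51% fell. Upk3b, Lrrn4 and Bnc1 entered the test through the knockout group (wild type above background on 2, 2 and 1 arrays). Krt18 and Upk1b had changes of 2.55 and 3.29, and Krt19 and Krt8 of -0.28 and -0.02, without passing. The summed signal of the mesothelial list, in units of each array's 75th percentile, was 42.2 to 126 for knockout and 3.33 to 19.6 for wild type. With slide as a block the call of Lrrn4 was lost and Krt18 passed (limma adjusted p = 0.0523 and 0.0465). Of 7 tested smooth muscle and pericyte markers 2 rose, Myh11 and Des, which entered the test through the knockout group (wild type above background on 2 and 1 arrays). The pericyte genes Notch3 and Cspg4 and the muscle gene Smtn had changes of -1.31, -1.22 and -0.43 and did not pass, and the summed signals were 74.3 to 87.4 against 27.1 to 89.6. Of 10 fibroblast markers 2 rose, Col1a1 and Col1a2, neither with slide as a block (adjusted p = 0.0842 and 0.094), with summed signals of 2090 to 2327 against 1212 to 2090. The part of these markers in the changes of the elastic fibre genes was not tested, and in a culture a larger share of 1 cell type and more RNA per cell cannot be told apart. Of the epithelial, endothelial and leukocyte markers none passed, with 7, 3 and 5 tested. Among the leukocyte markers Itgam cleared background on all 6 arrays, at 5.78 in the knockout and 5.71 in the wild type. S100a8 was lower on every knockout array, with a fitted change of -3.76 ± 1.07 (SE; limma adjusted p = 0.105). It entered the test through the wild type, with 1 of 3 knockout arrays well above background. Lyz2 was higher on every knockout array, with a fitted change of 1.02 ± 0.32 (SE; limma adjusted p = 0.135). It entered through the knockout group, with 1 of 3 wild-type arrays well above background.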

How the data were processed

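Cy3-labelled total RNA was hybridised to one-colour Agilent arrays. The deposited scanner tables hold spot intensity values made by Agilent Feature Extraction 10.7.3.1, per the file headers: a processed intensity with background subtracted and not normalized between arrays, and the median intensity of spot and local background. Version 9.1 is the one in the submitters' processing notes. The authors also deposited log2 values for 35844 probes, with column medians from 5.51 to 5.76, each correlating at 0.996 or more with its own array; their centring between arrays stays unknown, and they served as an alternative. The design is annotated on mm9, per the file headers.

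Control spots and outlier-flagged spots were left out, log2 processed intensities of repeated spots averaged, and each array's 75th percentile subtracted. A probe was tested where all 3 arrays of at least 1 group read it well above background (24242 of 55681 probes). The test was limma's moderated two-sided one (version 3.58.1, R 4.3.3), adjusted over all tested probes by Benjamini and Hochberg's method, at 0.05. The script was tested on simulated data. Probes were named by RefSeq accession (47.4%), and a gene is represented by its brightest tested probe. Fold values for a group not well above background use the lowest signal well above background on each of its arrays, which is an approximate limit. Permutation of 3 arrays against 3 cannot give an exact p below 0.1. The number of arrays limits precision. All members were named, with up to 3 genes past the threshold from each list, or the gene of smallest p, and the 5 profiles nearest to Eln; the Ltbp genes, Efemp1, Loxl2, Loxl3, Mmp9, Mmp12, Prtn3, Elane and Ctsg and the marker genes singled out were chosen after their values were seen. Members and lists were chosen with earlier results of these data known.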

Additional observations from a re-analysis of the deposited data

How the results depend on the processing

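The count of elastic fibre genes past the threshold, 0 as reported, in limma (2 at an unadjusted p under 0.05), was 0 under 8 of 11 settings that kept all arrays. It was 1 (Fbln5) when features of a gene were averaged, 3 (Fbn1, Fbln5 and Efemp2) with array weights, and 1 when any feature of a gene could call it, the last and the gene-by-gene estimate of the weights being chosen after seeing the data. Leaving out 1 array gave 0 to 1, the 1 being Fbln5 without wild-type replicate 2. The median change, 0.55, was 0.43 with scaling to detected features, 0.44 with the authors' log2 values, 0.74 over the 8 genes detected on all 6 arrays, and 0.50 to 0.66 without 1 array. The Fbn2 change turned to -0.01 with scaling to detected features and with the authors' values and to -0.05 with array weights, and ran from -0.10 to 0.31 without 1 array. Fbln1 turned to -0.70 with array weights and ran from -0.83 to 0.86 without 1 array. The causes were not tested.

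Of all probes, 1127 passed as reported, 634 with normexp, 656 when detected on all 6 arrays, 113 with no filter, 5973 with array weights and 109 to 1913 without 1 array (109 without knockout replicate 3, 118 without wild-type replicate 3, 1913 without wild-type replicate 2). With the replicate block, which is also the slide, 390 passed. Deviations of same-numbered arrays correlated at 0.096, -0.02 and 0.21, so the numbers were not read as pairs. The block changed no call among the elastic fibre features (Fbln5 adjusted p = 0.132 and 0.035). Eln, Fbn2 and the dimmer features of Fbln5 and Fbln1 were not well above background on every wild-type array.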

Other observations

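A dimmer Fbn2 feature (A_51_P103850) entered no test, since it was well above background on 1 array alone. It read -1.59 on wild-type replicate 1, against -5.58 and -6.69 on the other wild-type arrays and -4.70, -5.36 and -5.11 on the knockout arrays. The brighter Fbn2 feature was highest on the same wild-type array, at -2.08, level with knockout replicate 2.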
